A study of Mus musculus with 9 samples.

Results

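Itch in allergic skin is carried by sensory neurons whose endings lie in the skin and whose cell bodies lie in ganglia outside it. Serotonin, endothelin 1, the cytokine IL-31, proteases and neuropeptides act on or are released from these endings, and enkephalins act on opioid receptors that modulate itch and pain. The genes described here are 9 such mediators and receptors: the peptide precursor genes Nppb, Tac1, Penk and Edn1, the cytokine gene Il31 and its receptor gene Il31ra, the serotonin enzyme gene Tph1, the serotonin transporter gene Slc6a4, and F2rl1, which encodes the protease-activated receptor PAR2. They were listed by symbol, and each was represented by the transcript cluster with its symbol alone and the highest mean over 9 arrays. A cluster was found for 8 of the 9, among 30142 genes. No value is given for F2rl1, which is not analysed here.

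The arrays held whole neck skin of male C57BL/6 mice aged 6 to 8 weeks. In 3 mice each, allergic contact dermatitis was elicited with the small synthetic allergen oxazolone or with urushiol, the oily allergen of poison ivy. The allergen was painted on the shaved abdomen at 2.0% and, 5 days later, at 0.5% in 40 µl of acetone on the shaved nape for 5 challenges up to day 8, and skin was collected 4 hours after the last one. The 3 control mice had healthy skin, and whether they were shaved or given acetone is not stated in the labels. The title asks how immune and pruritic mechanisms differ between the models. The labels call the arrays of a group biological replicates. Values below are log2 expression values, differences are log2 differences ± standard error between groups of n = 3 arrays, and a gene rose or fell where the limma fit of all genes gave an adjusted p under 0.05 (Benjamini-Hochberg). The values of the file reach 19.93, past the log2 range of a 16-bit scanner, so a log2 difference may not equal the log2 ratio of RNA amounts.

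The tissue label was borne out by the keratinocyte markers, whose mean over 8 genes lay at 16.02 to 16.46 on oxazolone arrays, 16.37 to 16.51 on urushiol arrays and 15.46 to 16.18 on control arrays. Among the controls, array 3 differed in its hair genes: the mean of 8 hair follicle genes was 12.97 on it, against 6.00 and 6.28 on control arrays 1 and 2, while it was 12.05 to 14.91 on oxazolone and 11.20 to 12.20 on urushiol arrays. Fits without control array 3 thus set controls low in hair genes against challenged arrays all higher in them. Such fits cannot tell the allergen from this difference. Markers of skeletal muscle, which lies under the skin, were lower after challenge. The mean of 10 muscle genes was 6.97 to 8.83 on oxazolone, 10.87 to 11.77 on urushiol and 15.00 to 17.46 on control arrays. Of these muscle genes 10 fell in oxazolone and 9 in urushiol skin. Markers of fat and connective tissue were also lower, as were 2 of 4 nerve sheath genes. Of 7 adipocyte genes, 6 fell in oxazolone and 5 in urushiol skin, with list means of 8.61 to 9.04 on oxazolone, 8.77 to 9.39 on urushiol and 10.02 to 10.96 on control arrays. Of 6 fibroblast genes, 4 fell in oxazolone and 3 in urushiol skin, with list means of 14.17 to 15.27, 14.56 to 15.56 and 15.90 to 16.18 on oxazolone, urushiol and control arrays. Of 4 Schwann cell genes, 2 (Mbp, Pmp22) fell under each allergen, with list means of 7.57 to 7.64, 7.57 to 7.79 and 7.94 to 8.21. The other 2 were not called. Sox10 stood at -0.04 ± 0.06 in oxazolone and -0.18 ± 0.06 in urushiol skin, and Ncmap at 0.08 ± 0.07 and 0.05 ± 0.07. By list mean every challenged array lay below every control array in the muscle, adipocyte, fibroblast and Schwann cell lists. Of 8 neutrophil genes, all rose under both allergens. In whole skin, fewer cells of a type, less RNA per cell and a different make-up of the sample cannot be told apart.

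**Figure D1:**
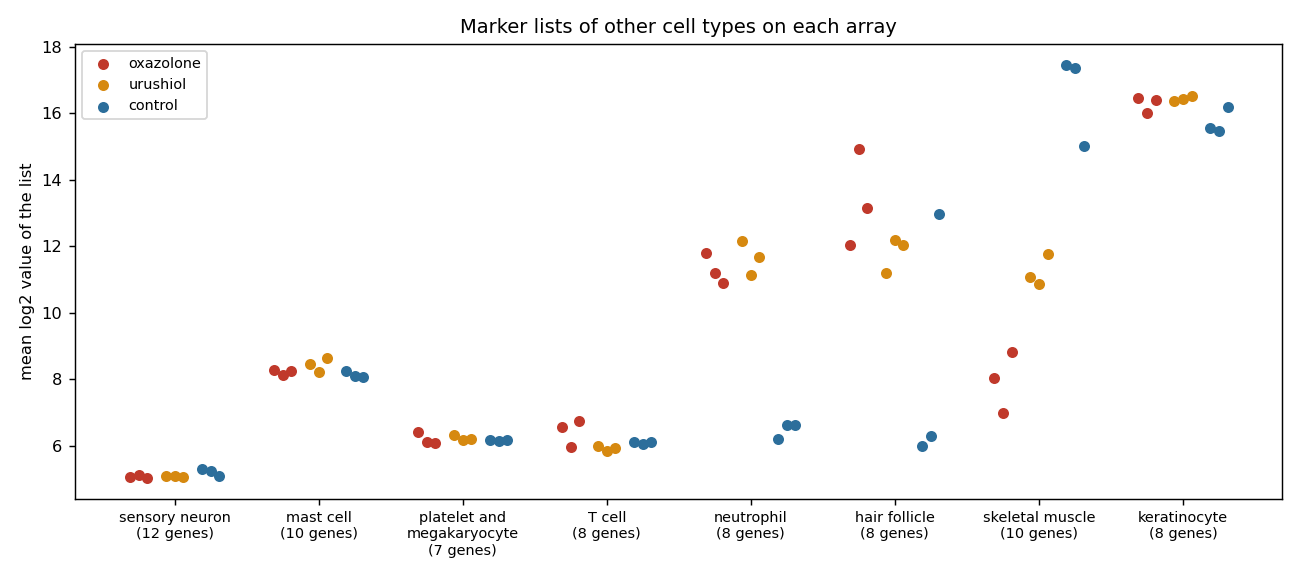
Mean log2 value of marker lists (vertical axis) on each of 9 arrays, by list and group (oxazolone, urushiol, control from left to right). Sensory neuron, mast cell and platelet lists lie close together in all groups, neutrophil and muscle lists separate the challenged arrays from the controls, and control array 3 lies with the challenged arrays for hair follicle genes.

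Of the 8 measured itch mediators, 2 rose (Nppb, Tph1) and 3 fell (Il31ra, Slc6a4, Penk) in oxazolone skin. Over all genes tested, 9.63% rose and 6.92% fell. In urushiol skin 1 rose (Nppb) and the same 3 fell, where 9.96% of all genes rose and 6.43% fell. Both comparisons use the same 3 control arrays, so their results are not independent of each other. The median difference of the 8 genes was 0.01 in oxazolone and 0.08 in urushiol skin, against 0.06 and 0.04 over all genes. None of the 8 differed between urushiol and oxazolone skin by limma, and 2 (Tph1 and Il31) had an unadjusted p under 0.05. Of all 30142 genes, 1772 had an unadjusted p under 0.05 in this comparison. Against control, 10277 had one in oxazolone and 9695 in urushiol skin. By adjusted p, 0.00664% of all genes were higher and 0.00995% lower in urushiol than in oxazolone skin. Without control array 3, 3 members rose and 3 fell in oxazolone skin, and 1 rose and 3 fell in urushiol skin. Over all genes 4749 rose and 3270 fell in oxazolone skin in that fit, and 4566 and 3089 in urushiol skin. List counts given below for that fit have this background. The oxazolone count of members was 3 without control array 1, and 2 when oxazolone and control arrays were fitted alone. In these fits 2107 and 2198 of all genes were called, against 4989 with all arrays.

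**Figure D2:**
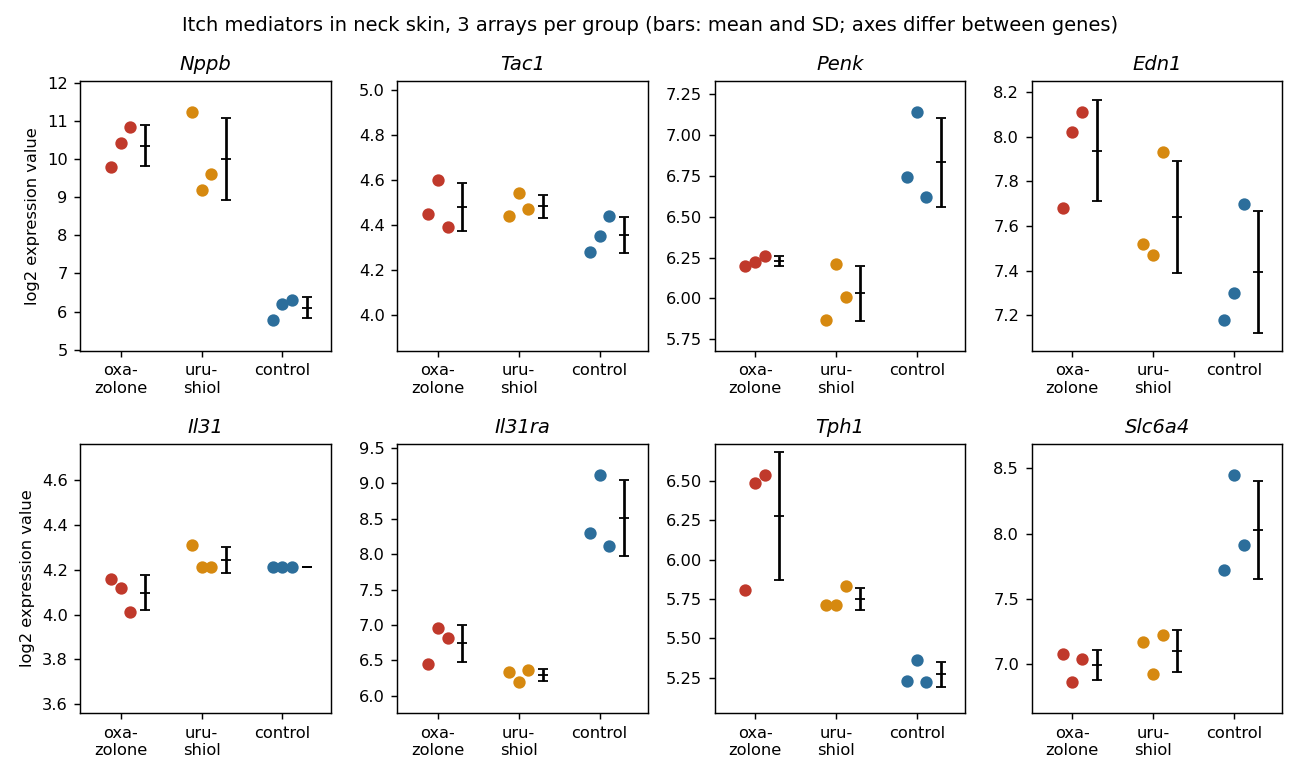
Log2 expression value (vertical axes, scaled per gene) of 8 itch mediators on 9 arrays, with oxazolone left, urushiol in the middle and control right. Points are arrays and bars the mean and SD of 3 arrays. For Nppb and Tph1 every challenged array lies above every control array, for Il31ra, Slc6a4 and Penk every one lies below, and for Tac1 and Edn1 the groups overlap.

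Nppb, the B-type natriuretic peptide gene, is a transmitter gene of itch-sensing neurons and is also expressed in stressed heart muscle. It stood at 9.78, 10.43 and 10.85 on oxazolone arrays and at 11.23, 9.18 and 9.61 on urushiol arrays, against 5.79, 6.20 and 6.31 on control arrays. All 6 challenged arrays thus lay above all controls, and the urushiol arrays were spread most widely, with an SD of 1.08 against 0.54 on oxazolone and 0.27 on control arrays. Nppb rose by 4.25 ± 0.53 in oxazolone (adjusted p = 0.00411) and by 3.91 ± 0.53 in urushiol skin (adjusted p = 0.00523). By size these were rank 149 and rank 136 among the rises of all 30142 genes. Between the allergens the difference was -0.35 ± 0.53, with a 95% confidence interval of -1.61 to 0.91, and their arrays overlapped. It was 0.07 without urushiol array 2 and -0.96 without urushiol array 1.

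Nppb RNA is known from sensory neurons, whose cell bodies are not in the skin. Of 12 measured sensory neuron markers, 0 were called by limma under either allergen. Under each, 2 had an unadjusted p under 0.05, where 10277 (oxazolone) and 9695 (urushiol) of all 30142 genes did. The mean level of the markers was 5.03 to 5.12 on oxazolone, 5.05 to 5.10 on urushiol and 5.08 to 5.30 on control arrays. These means lay below the median of all clusters (5.53 to 5.64). Scn9a, Scn11a and Trpa1 had means of 4.36, 4.27 and 4.3 with an SD of 0 in every group, so such genes could hardly show a change. The 2 markers with an unadjusted p under 0.05 were Isl1 (-1.51 ± 0.43 in oxazolone and -1.4 ± 0.43 in urushiol skin) and Avil (-0.43 ± 0.14 and -0.47 ± 0.14). Which cells held the Nppb RNA was not tested. Among the natriuretic receptor genes, Npr1 and Npr2 fell in oxazolone skin and Npr2 fell in urushiol skin. Npr1, which encodes the receptor for Nppb, stood at 6.38, 6.29 and 5.89 on oxazolone, 6.31, 6.26 and 6.38 on urushiol, and 7.20, 7.26 and 6.55 on control arrays. It fell by 0.82 ± 0.21 in oxazolone skin (adjusted p = 0.0388) and stood at -0.69 ± 0.21 in urushiol skin (adjusted p = 0.065). The oxazolone call was lost when any array but control array 3 was left out (adjusted p up to 0.122), and without control array 3 Npr1 passed under both allergens (0.0033 and 0.00551). With oxazolone and control arrays fitted alone it did not pass (0.108). Npr2, the receptor gene for the C-type peptide, fell by 1.79 ± 0.29 in oxazolone and 1.69 ± 0.29 in urushiol skin (adjusted p = 0.0102 and 0.0115), and the urushiol call was lost with urushiol and control arrays fitted alone (0.0565). The clearance receptor gene Npr3 stood at -0.64 ± 0.27 in oxazolone and -0.65 ± 0.27 in urushiol skin and did not pass (0.147 and 0.148).

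Among 13 measured genes of natriuretic and related peptides other than Nppb, 2 rose and 3 fell in oxazolone skin, and 2 rose and 2 fell in urushiol skin. Furin, a protease that cleaves peptide precursors, rose by 1.39 ± 0.21 in oxazolone and 1.21 ± 0.21 in urushiol skin, and Grpr, the receptor gene for gastrin-releasing peptide, by 0.72 ± 0.20 in oxazolone and 0.78 ± 0.20 in urushiol skin. Grpr was low, at 5.17, 5.21 and 4.81 on oxazolone, 5.53, 4.81 and 5.03 on urushiol, and 4.32, 4.23 and 4.48 on control arrays. None of these values was above 5.53, the lowest array median of all clusters. Prkg1, the kinase gene downstream of cyclic GMP, fell by 1.66 ± 0.37 in oxazolone and 1.46 ± 0.37 in urushiol skin. Each Grpr call failed in 6 of 9 fits that omitted 1 array (adjusted p up to 0.143 in oxazolone and 0.121 in urushiol skin), and the Prkg1 calls failed in 6 and 8 (up to 0.0904 and 0.129). With the groups fitted alone, Grpr did not pass in urushiol skin (0.0927), nor Prkg1 in either (0.0856 in oxazolone and 0.117 in urushiol skin). The whole list had 5 calls in oxazolone skin and 4 in urushiol skin, which became 2 to 6 and 2 to 5 in these fits, 6 and 5 without control array 3 and 2 without control array 1 or 2, among others. Muscle, adipocyte and fibroblast genes fell in the same comparisons, and their part in the changes of Npr1, Npr2 and Prkg1 was not tested.

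The promoters of Nppb, the member with the largest rise, and Il31ra, the member with the deepest fall, are shown because they are the ends of the range. The RefSeq table held a promoter for 7 of the 9 members. Each window shown is the 250 bases before the start in the RefSeq table of GRCm38.p6, on the gene's strand, 5′ to 3′, at chr4:147985650-147985899 (plus strand) for Nppb and chr13:112580663-112580912 (minus strand) for Il31ra. Capitals mark a TATA box (TATAAA, either strand) in Nppb and a STAT motif (TTCNNNGAA, the same read on both strands) in Il31ra.
Nppb: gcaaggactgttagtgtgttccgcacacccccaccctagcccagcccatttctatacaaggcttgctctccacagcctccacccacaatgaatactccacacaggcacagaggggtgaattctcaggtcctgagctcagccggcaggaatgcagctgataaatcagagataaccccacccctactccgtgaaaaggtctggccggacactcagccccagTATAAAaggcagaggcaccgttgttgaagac
Il31ra: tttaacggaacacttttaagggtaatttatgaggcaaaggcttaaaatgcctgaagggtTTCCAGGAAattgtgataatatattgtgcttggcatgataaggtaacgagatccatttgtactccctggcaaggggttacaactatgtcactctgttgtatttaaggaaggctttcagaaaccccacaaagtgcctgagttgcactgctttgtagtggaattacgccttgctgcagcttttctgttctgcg
The TATA box of Nppb lies 31 to 26 bases before the start, and the STAT motif of Il31ra 191 to 183 bases before it. A TATA box was present in 12.4% and a STAT motif in 7.0% of 32851 windows of this length in the table. An AP-1 motif (TGANTCA), present in 6.7% of the windows, was not found in either. The motifs do not overlap, and a match is a description of letters, not of binding.

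Tac1, the precursor gene of substance P, showed low values in every group. It stood at 4.45, 4.60 and 4.39 on oxazolone, 4.44, 4.54 and 4.47 on urushiol, and 4.28, 4.35 and 4.44 on control arrays. It was below the median of all clusters on all 9 arrays (5.53 to 5.64), and its groups overlapped. The differences were 0.12 ± 0.07 in oxazolone and 0.13 ± 0.07 in urushiol skin (adjusted p = 0.249 and 0.254), with 95% intervals of -0.04 to 0.28 and -0.03 to 0.29. Tacr1, which encodes the substance P receptor, stood at 7.33, 6.76 and 7.00 on oxazolone, 7.27, 7.49 and 7.63 on urushiol, and 6.50, 6.64 and 6.22 on control arrays. It rose by 1.01 ± 0.18 in urushiol skin (adjusted p = 0.0117) and stood at 0.58 ± 0.18 in oxazolone skin (adjusted p = 0.0643). The difference between the allergens was 0.43 ± 0.18 (adjusted p = 0.818). Of 14 measured tachykinin, CGRP and related genes other than Tac1, 1 fell in oxazolone skin, and 1 rose and 1 fell in urushiol skin. Without control array 3, 3270 and 3089 of all genes fell in oxazolone and urushiol skin, against 2085 and 1939 with it. In this list 3 then fell in oxazolone skin, and 1 rose and 3 fell in urushiol skin. The gene that fell was Vipr1, a receptor gene for vasoactive intestinal peptide, by 0.46 ± 0.09 in oxazolone and 0.49 ± 0.09 in urushiol skin, and each call failed without control array 1 or 2, and without oxazolone array 3 or urushiol array 3 in its own comparison (adjusted p up to 0.0637 and 0.0521). With oxazolone and control arrays fitted alone Vipr1 had an adjusted p of 0.0576. Its values, 4.87 to 5.54 over the 9 arrays, lay near or below the median of all clusters.

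Penk, the enkephalin precursor gene, fell under both allergens. It stood at 6.20, 6.22 and 6.26 on oxazolone and at 5.87, 6.21 and 6.01 on urushiol arrays, against 6.74, 7.14 and 6.62 on control arrays. All challenged arrays lay below all controls, and control array 2 was the highest. Penk fell by 0.61 ± 0.14 in oxazolone (adjusted p = 0.0309) and by 0.80 ± 0.14 in urushiol skin (adjusted p = 0.0125). Between the allergens it stood at -0.20 ± 0.14 (95% interval -0.53 to 0.14). The oxazolone call failed in 6 of the 9 fits that omitted 1 array. Its adjusted p was 0.0713 with control array 1 omitted and 0.0529 with control array 2 omitted. It was 0.0877, 0.0814 and 0.0797 when the omitted array was oxazolone 1, 2 or 3, and 0.0579 when it was urushiol 3. With the groups compared alone, adjusted p was 0.0725 in oxazolone and 0.0588 in urushiol skin. The part of the lower fibroblast, adipocyte and muscle markers, and of Mbp and Pmp22, in the fall of Penk was not tested. Of 10 other opioid genes, 0 were called by limma under either allergen, and 1 had an unadjusted p under 0.05 under each. Of all 30142 genes, 10277 had one in oxazolone and 9695 in urushiol skin. Without oxazolone array 3, 1 opioid gene was called in oxazolone skin. Over the 9 arrays, Oprm1, the mu opioid receptor gene, ranged from 5.00 to 5.08, the dynorphin precursor gene Pdyn from 4.92 to 5.04 and Pomc, the precursor gene of beta-endorphin, from 5.49 to 5.86.

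Edn1 encodes endothelin 1, a vasoconstrictor of endothelial cells and keratinocytes that also triggers itch. It stood at 7.68, 8.02 and 8.11 on oxazolone, 7.52, 7.47 and 7.93 on urushiol, and 7.18, 7.30 and 7.70 on control arrays. The groups overlapped, oxazolone array 1 lying just below control array 3. The difference was 0.54 ± 0.19 in oxazolone (adjusted p = 0.0922, 95% interval 0.10 to 0.99) and 0.25 ± 0.19 in urushiol skin (adjusted p = 0.429, 95% interval -0.20 to 0.69). Without control array 3 the oxazolone difference was 0.70 and passed (adjusted p = 0.0346). Ednrb, an endothelin receptor gene that melanocytes also express, stood at 10.77, 11.51 and 10.65 on oxazolone, 10.38, 10.56 and 10.97 on urushiol, and 9.57, 9.93 and 10.52 on control arrays. Its differences of 0.97 ± 0.32 in oxazolone and 0.63 ± 0.32 in urushiol skin did not pass (0.0786 and 0.225), though the oxazolone one did without control array 3 (0.0293). The mean of 6 melanocyte genes was 8.21 to 10.80 on oxazolone, 7.16 to 8.10 on urushiol and 5.71 to 8.85 on control arrays, and its part was not tested. Of 10 endothelin pathway genes other than Edn1, 1 fell in oxazolone skin, and 1 rose and 2 fell in urushiol skin. With 1 array omitted the urushiol calls numbered 0 to 3, with none left without control array 2 or urushiol array 1, and without control array 3 a further gene rose in oxazolone skin. Plcb4, a phospholipase gene of the signal path, fell by 1.35 ± 0.22 in oxazolone and 1.21 ± 0.22 in urushiol skin, the urushiol call being lost without control array 2 or urushiol array 1 (adjusted p up to 0.0543) and with the groups fitted alone (0.0567). In urushiol skin Edn2, a second endothelin gene, rose by 0.22 ± 0.05 (failed in 4 of 9 fits with 1 array omitted, adjusted p up to 0.0865). The Edn2 call was also lost after quantile renormalisation (0.11), median centring (0.126) and with the groups fitted alone (0.0712). The G protein gene Gnaq fell by 0.46 ± 0.11 in urushiol skin, a call that failed in 7 such fits (up to 0.112) and with the groups fitted alone (0.0976).

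**Figure D3:**
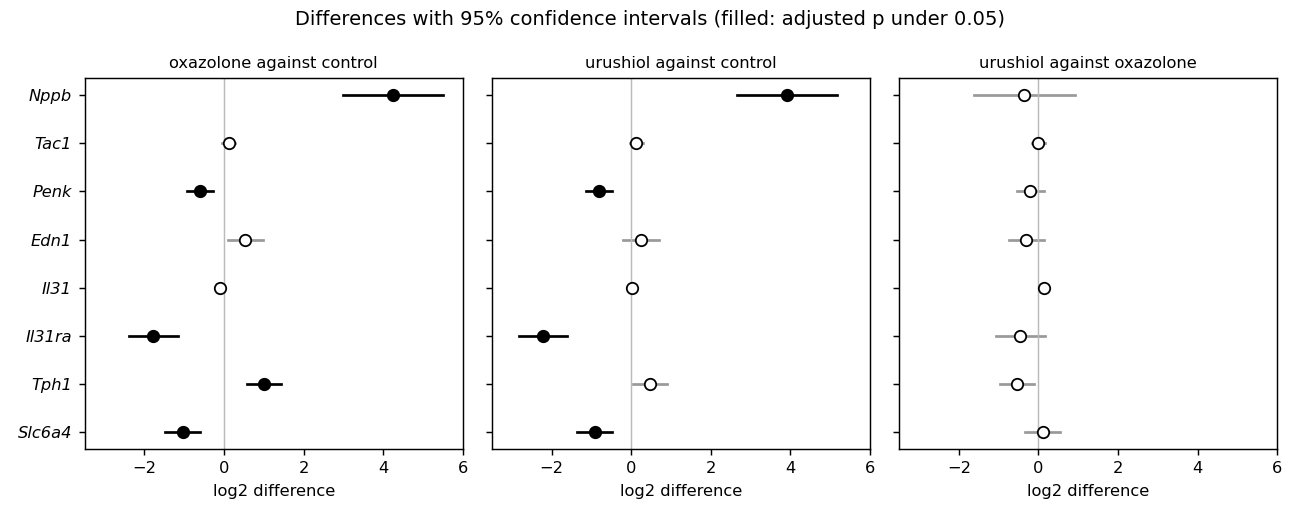
Log2 difference (horizontal axis) of 8 itch mediators with its 95% confidence interval in the 3 comparisons, filled where adjusted p was under 0.05. Nppb lies farthest right and Il31ra farthest left against control under both allergens, and no point is filled between the allergens.

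IL-31 is made mainly by T helper cells and signals through Il31ra paired with the oncostatin M receptor Osmr. Il31 itself was low in all groups. It stood at 4.16, 4.12 and 4.01 on oxazolone, 4.31, 4.21 and 4.21 on urushiol, and 4.21, 4.21 and 4.21 on control arrays. The same value thus recurred on 5 of 9 arrays, as it did on at least 5 arrays for 9259 of the 65956 clusters, and Il31 was below the median of all clusters on all 9 arrays. Its difference was -0.11 ± 0.05 in oxazolone skin (adjusted p = 0.162) and 0.03 ± 0.05 in urushiol skin (adjusted p = 0.713). Median centring gave the oxazolone difference an adjusted p of 0.0336 and turned the sign of the urushiol one (-0.02), as did quantile renormalisation (-0.01). Between urushiol and oxazolone Il31 stood at 0.15 ± 0.05 (adjusted p = 0.705). The 8 T cell markers had list means of 5.97 to 6.75, 5.84 to 5.99 and 6.06 to 6.12 on oxazolone, urushiol and control arrays. These means combine opposite changes. In oxazolone skin Cd8a and Cd5 rose by 2.02 ± 0.55 and 0.66 ± 0.11 (adjusted p = 0.0464 and 0.0103 by limma), and Cd3e fell by 1.1 ± 0.24. The SD of Cd8a was 1.24 on oxazolone and 0.11 on control arrays. In urushiol skin Cd4 and Cd5 rose by 0.88 ± 0.15 and 0.67 ± 0.11, and Cd3e and Cd3g fell by 1.87 ± 0.24 and 1.25 ± 0.29.

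Il31ra fell the most of the members. It stood at 6.45, 6.96 and 6.81 on oxazolone and at 6.33, 6.19 and 6.36 on urushiol arrays, against 8.30, 9.12 and 8.12 on control arrays. Every challenged array was more than 1 log2 unit below the lowest control, and each urushiol array was below each oxazolone array. Il31ra fell by 1.77 ± 0.26 in oxazolone (adjusted p = 0.007) and by 2.22 ± 0.26 in urushiol skin (adjusted p = 0.00323), rank 534 and rank 340 by size among the falls of all genes. Between the allergens the difference was -0.45 ± 0.26 (adjusted p = 0.974, 95% interval -1.06 to 0.17). Both calls against control held under all 16 alternatives, at adjusted p from 0.00276 to 0.0386 in oxazolone and 0.00128 to 0.0202 in urushiol skin. Of these alternatives, averaging clusters could not change the values of Il31ra, which had 1 cluster. The part of the lower fibroblast, adipocyte and muscle markers, and of Mbp and Pmp22, in the fall of Il31ra was not tested.

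Its partner Osmr and the oncostatin M gene Osm were higher on every challenged array than on every control array. Osmr stood at 13.00, 13.42 and 13.69 on oxazolone, 12.61, 11.47 and 12.83 on urushiol, and 11.07, 11.25 and 11.12 on control arrays. It rose by 2.22 ± 0.35 in oxazolone skin (adjusted p = 0.00911), and stood at 1.16 ± 0.35 in urushiol skin (adjusted p = 0.0666), where it passed without urushiol array 2 (0.00971). The difference between the allergens was -1.07 ± 0.35 (adjusted p = 0.675). Osm was at 8.24, 8.06 and 7.64 on oxazolone, 8.12, 7.67 and 7.64 on urushiol, and 6.06, 5.51 and 5.50 on control arrays. It rose by 2.29 ± 0.23 in oxazolone and 2.12 ± 0.23 in urushiol skin (adjusted p = 0.00186 and 0.00228). Oncostatin M is a product of activated myeloid and T cells, and the mean of 8 neutrophil markers was 10.88 to 11.81 on oxazolone, 11.12 to 12.17 on urushiol and 6.19 to 6.63 on control arrays; its part in the rise of Osm was not tested.

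Downstream of these receptors the kinase gene Jak2 rose by 2.14 ± 0.20 in oxazolone and 1.06 ± 0.20 in urushiol skin (adjusted p = 0.00155 and 0.0149). Its urushiol call was lost without control array 2, urushiol array 1 or urushiol array 3 (adjusted p up to 0.0538). The difference between the allergens, -1.08 ± 0.20 with no overlap of arrays, did not pass (adjusted p = 0.243). Bcl3, a nuclear partner of NF-kB, rose by 1.62 ± 0.17 in oxazolone and 1.43 ± 0.17 in urushiol skin (adjusted p = 0.00217 and 0.00309). In oxazolone skin the transcription factor gene Stat3 and the feedback inhibitor gene Socs3 rose by 0.83 ± 0.16 and 0.86 ± 0.17 (adjusted p = 0.0188 and 0.0187), and they stood at 0.50 ± 0.16 and 0.33 ± 0.17 in urushiol skin (0.0827 and 0.235). Stat5a fell by 0.37 ± 0.08 in oxazolone and 0.53 ± 0.08 in urushiol skin. Stat5b fell by 1.22 ± 0.31 in oxazolone and 1.27 ± 0.31 in urushiol skin, and its calls failed when any array but control array 3 was omitted (adjusted p up to 0.116 and 0.115) and with the groups fitted alone (0.104 and 0.109). Pim1, a kinase gene induced by STAT factors, rose by 1.08 ± 0.26 in oxazolone skin (adjusted p = 0.0336, failing in 7 of 9 fits with 1 array omitted, up to 0.102, and with the groups fitted alone, 0.0972) and stood at 0.92 ± 0.26 in urushiol skin (0.0542). Il6st, the shared chain gene gp130 that oncostatin M receptors use, stood at -0.40 ± 0.14 in oxazolone skin (adjusted p = 0.0923) and fell by 0.52 ± 0.14 in urushiol skin (adjusted p = 0.0471), a call lost when any array but control array 3 was left out (up to 0.149), with a trended variance (0.0659) and with the groups fitted alone (0.131). In all, 7 of 13 measured genes of this pathway, without Il31 and Il31ra, rose and 2 fell in oxazolone skin, and 3 rose and 3 fell in urushiol skin. Without control array 3, 7 rose and 2 fell in oxazolone skin, and 3 rose and 4 fell in urushiol skin. The oxazolone total of 9 was 5 without control array 1, oxazolone array 2 or oxazolone array 3, and the urushiol total of 6 was 3 without urushiol array 1 or 3.

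Tph1, the first enzyme of serotonin synthesis outside the brain, is known from mast cells and the gut. It stood at 5.81, 6.49 and 6.54 on oxazolone and at 5.71, 5.71 and 5.83 on urushiol arrays, against 5.23, 5.36 and 5.22 on control arrays. Every challenged array was above every control, and oxazolone array 1 lay within the urushiol range. Tph1 was above the median of all clusters (5.53 to 5.64) on 6 of 9 arrays, and below it on all control arrays. Tph1 rose by 1.01 ± 0.18 in oxazolone skin (adjusted p = 0.0142), a call lost without control array 1 (0.0535) and when the groups were fitted alone (0.0591). In urushiol skin it stood at 0.48 ± 0.18 (adjusted p = 0.121, 95% interval 0.05 to 0.91), and it passed without oxazolone array 1 (0.00757) and with the groups fitted alone (0.019). Between the allergens the difference was -0.53 ± 0.18 (unadjusted p = 0.0229 and adjusted p = 0.713 by limma), with a 95% interval of -0.96 to -0.10.

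Slc6a4 encodes the transporter that takes serotonin up into platelets, mast cells and neurons. It stood at 7.08, 6.86 and 7.04 on oxazolone and at 7.17, 6.92 and 7.22 on urushiol arrays, against 7.72, 8.45 and 7.91 on control arrays. The challenged arrays overlapped each other and lay below all controls, of which array 2 was again the highest. Slc6a4 fell by 1.03 ± 0.19 in oxazolone (adjusted p = 0.0138) and by 0.92 ± 0.19 in urushiol skin (adjusted p = 0.0193). With the groups fitted alone neither passed (0.0517 and 0.0729), and the urushiol call was lost without urushiol array 1 or 2 (0.0589 each). The difference between the allergens was 0.11 ± 0.19 (95% interval -0.33 to 0.55).

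Marker lists of cells that handle serotonin were measured on the same arrays. The mean of 10 mast cell genes was 8.12 to 8.29 on oxazolone, 8.23 to 8.64 on urushiol and 8.08 to 8.26 on control arrays, with 2 genes (Cpa3, Cma1) higher and 1 (Mrgprb2) lower under each allergen. The mean of 7 platelet genes was 6.08 to 6.42, 6.17 to 6.32 and 6.15 to 6.16 on oxazolone, urushiol and control arrays. By limma 0 of them were called under either allergen. An unadjusted p under 0.05 was found for 1 and 0 of them, and for 10277 and 9695 of all 30142 genes. The mast cell mean combines opposite changes. Mrgprb2, a receptor gene of connective tissue mast cells, fell by 3.02 ± 0.17 in oxazolone and fell by 2.30 ± 0.17 in urushiol skin. The protease genes Cpa3 and Cma1 rose by 0.90 ± 0.20 and 1.0 ± 0.20 in oxazolone skin and by 1.45 ± 0.20 and 1.12 ± 0.20 in urushiol skin. The part of these cells in the changes of Tph1 and Slc6a4 was not tested. Nor was that of the lower fibroblast, adipocyte and muscle markers, or of Mbp and Pmp22, in the fall of Slc6a4.

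Of the genes around these, Maob, Maoa, Aldh2 and Gch1 were called under both allergens. Maob, a monoamine oxidase gene, stood at 7.61, 7.52 and 7.31 on oxazolone, 8.09, 7.42 and 8.10 on urushiol, and 10.65, 10.78 and 9.47 on control arrays. It fell by 2.82 ± 0.36 in oxazolone (adjusted p = 0.00433) and fell by 2.43 ± 0.36 in urushiol skin (adjusted p = 0.00693). Maoa, whose enzyme prefers serotonin, rose instead, by 1.27 ± 0.32 in oxazolone and 1.60 ± 0.32 in urushiol skin (adjusted p = 0.0385 and 0.0188). The Maoa call failed in 6 of 9 fits with 1 array omitted in oxazolone skin (up to 0.123), and without control array 1 or 2 (up to 0.0691) and with the groups fitted alone (0.0752) in urushiol skin. Gch1, which makes the cofactor of tryptophan hydroxylase, rose by 1.62 ± 0.28 in oxazolone and 1.13 ± 0.28 in urushiol skin, and the urushiol call failed in 7 of 9 fits with 1 array omitted (adjusted p up to 0.11), control array 3 included (0.0638). The other 3 measured genes of this cofactor's synthesis and recycling, Pts, Spr and Qdpr, were not called under either allergen by limma, and none had an adjusted p under that of Qdpr in urushiol skin (0.0992). Aldh2, an aldehyde dehydrogenase gene, fell by 1.60 ± 0.26 in oxazolone and 1.81 ± 0.26 in urushiol skin, and the part of the lower tissue markers in the falls of Maob and Aldh2 was not tested. The decarboxylase gene Ddc was listed at 4.96 on all 9 arrays, as 243 clusters were at 1 value throughout, Tph2, the neuronal hydroxylase gene, ranged from 4.29 to 4.33, and the vesicle transporter gene Slc18a2 from 6.26 to 6.44. Of 11 measured genes of this list other than Tph1 and Slc6a4, 2 rose and 2 fell in oxazolone skin, and 3 rose and 2 fell in urushiol skin, with the vesicle transporter gene Slc18a1 (0.26 ± 0.05) as the further one. That call failed without control array 1 or 2 (up to 0.0688), when the urushiol total of 5 was 2, and also after median centring (0.068) and with the groups fitted alone (0.0711). Slc18a1 stood at 4.49 to 4.91 over the 9 arrays, below the lowest array median of all clusters (5.53).

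Of 14 serotonin receptor genes, 3 rose in oxazolone and 1 in urushiol skin. Htr1b was at 6.45, 5.45 and 5.80 on oxazolone, 6.05, 6.47 and 6.37 on urushiol, and 4.81, 5.09 and 5.06 on control arrays, and rose by 0.91 ± 0.25 in oxazolone and 1.31 ± 0.25 in urushiol skin (adjusted p = 0.048 and 0.0158). Htr2a and Htr7, receptors known from itch models, rose by 0.53 ± 0.14 and 0.50 ± 0.14 in oxazolone skin (adjusted p = 0.0413 and 0.0468), and did not pass in urushiol skin (0.0709 and 0.477). None of these oxazolone calls held in all fits that omitted 1 array: that of Htr1b failed in 8, that of Htr2a in 7 and that of Htr7 in 9 (adjusted p up to 0.137, 0.114 and 0.119). All 3 were also lost after quantile renormalisation (0.0546 for Htr1b, 0.0587 for Htr2a and 0.0821 for Htr7), after median centring (0.0533, 0.0549 and 0.0822) and with the groups fitted alone (0.109, 0.101 and 0.119). The oxazolone count was 0 to 2 in those fits, and 0 without control array 1, 2 or 3 among others. The urushiol call of Htr1b was lost without control array 1, urushiol array 2 or urushiol array 3 (up to 0.0584). Htr1b was below the lowest array median of all clusters (5.53) on all control arrays and on oxazolone array 2. Htr7 was low, at 4.96 to 5.92, and above the median of all clusters on 2 of 9 arrays. Htr3a, the channel-forming receptor gene, ranged from 4.62 to 4.70 over all arrays.

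F2rl1 has no value, but 18 genes of its relatives, of proteases that can act on it and of their inhibitors were measured. Of these 6 rose under each allergen. Klk6, Klk7, Klk13, Klk14 and Ctss did so under both, F10 in oxazolone and the inhibitor gene Spink5 in urushiol skin. Without control array 3 the counts of risers were 9 in oxazolone and 8 in urushiol skin. Over all genes 4749 and 4566 rose in that fit, against 2904 and 3003 with all arrays. Without control array 1 or 2 or oxazolone array 3 the oxazolone count of this list was 3. Klk14, a kallikrein that cleaves PAR2, stood at 7.57, 6.32 and 6.95 on oxazolone, 8.69, 8.16 and 7.80 on urushiol, and 5.18, 5.31 and 5.65 on control arrays. It rose by 1.57 ± 0.35 in oxazolone and 2.84 ± 0.35 in urushiol skin (adjusted p = 0.0268 and 0.00371), and the oxazolone call failed without control array 1 or 2 or oxazolone array 1 or 3 (up to 0.0878) and with the groups fitted alone (0.0633). Between the allergens Klk14 differed by 1.27 ± 0.35 with no overlap of arrays, which did not pass (adjusted p = 0.497). Klk13 and Klk6, kallikreins of the outer epidermis, rose by 5.99 ± 0.67 and 6.72 ± 0.55 in oxazolone skin and by 7.83 ± 0.67 and 7.69 ± 0.55 in urushiol skin. Ctss, the cathepsin S gene, rose by 2.33 ± 0.45 in oxazolone and 1.86 ± 0.45 in urushiol skin (adjusted p = 0.0173 and 0.0341), calls that failed in 3 and 7 of 9 fits with 1 array omitted (up to 0.0603 and 0.106), the urushiol call also without control array 3 (0.0566). F2r, the thrombin receptor gene, stood at 0.66 ± 0.28 in oxazolone and 0.80 ± 0.28 in urushiol skin and did not pass (0.147 and 0.0997). Klk5, another kallikrein gene, stood at -0.05 ± 0.37 in oxazolone and 1.32 ± 0.37 in urushiol skin and did not pass (0.953 and 0.0515). The tryptase genes Tpsab1 and Tpsb2 and the protease gene St14 were not called under either allergen.

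Histamine genes are given for comparison with serotonin. Hdc, the histamine-forming enzyme gene, was at 11.80, 11.07 and 10.51 on oxazolone, 11.66, 11.13 and 11.15 on urushiol, and 5.67, 6.66 and 6.11 on control arrays. It rose by 4.98 ± 0.38 in oxazolone and 5.17 ± 0.38 in urushiol skin (adjusted p = 0.000801 and 0.000675). Hnmt, which inactivates histamine, fell by 1.76 ± 0.34 in oxazolone skin (adjusted p = 0.0172, failing without control array 1 or 2 or oxazolone array 3, up to 0.0616, and with the groups fitted alone, 0.0687). It stood at -1.08 ± 0.34 in urushiol skin (0.0734), and passed there without control array 3 (0.0297).

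**Figure D4:**
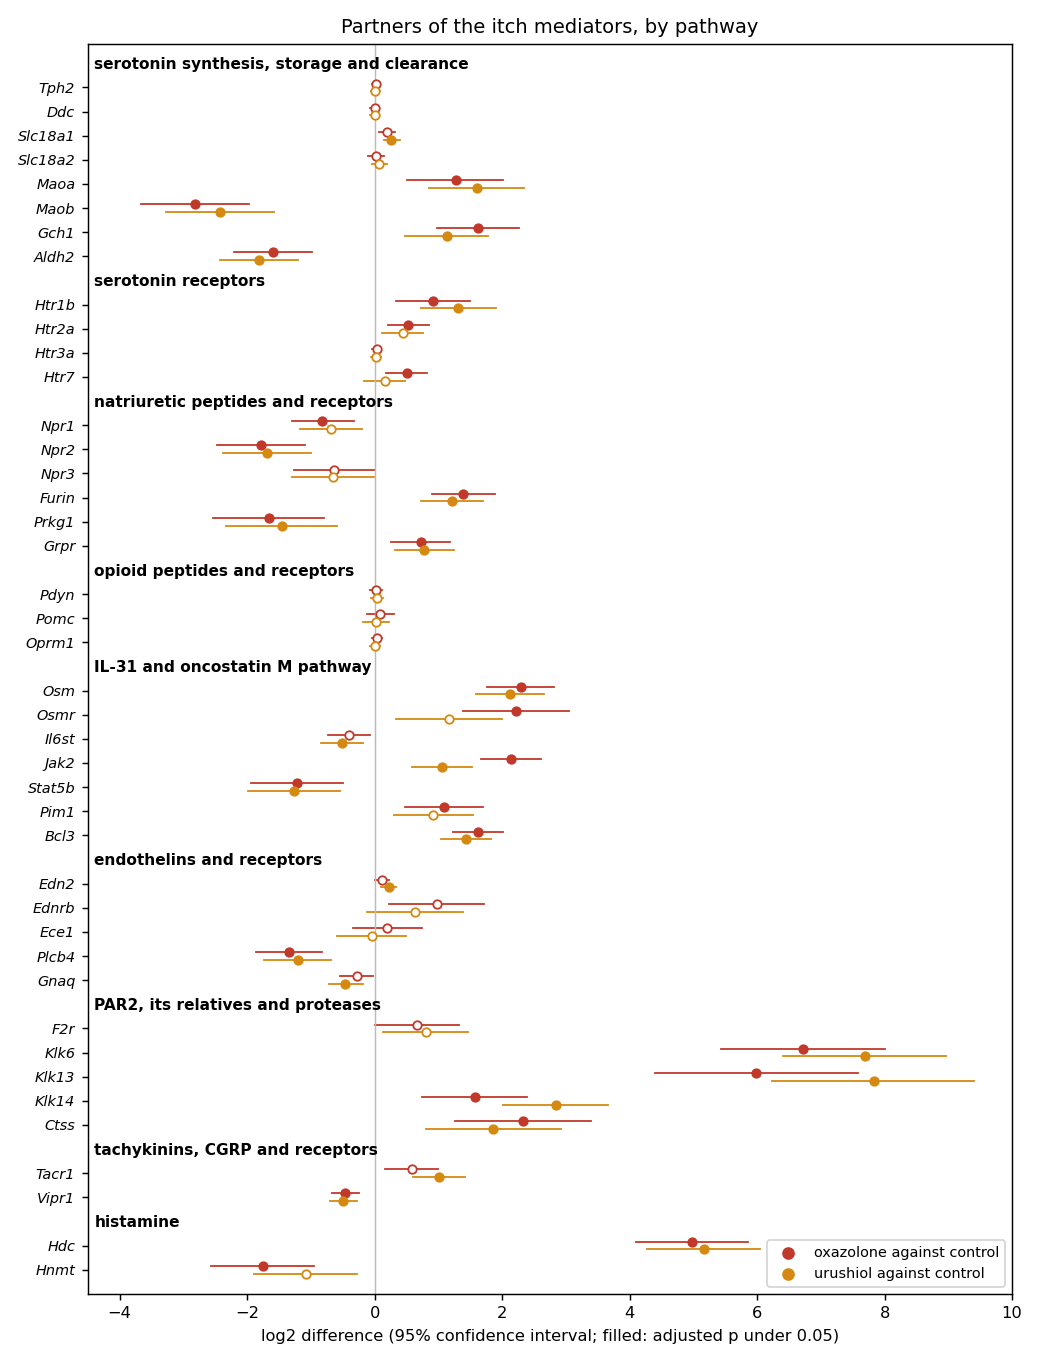
Log2 difference against control (horizontal axis) with its 95% confidence interval for the named partners of the itch mediators, grouped by pathway list, with oxazolone above urushiol in each row and filled points where adjusted p was under 0.05. Osm and Jak2 lie right of zero and Npr2, Prkg1 and Maob left of it under both allergens, and the opioid partners lie at zero.

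For each member that was called, the genes with the most similar pattern over 9 arrays were found by Pearson's r, as a description. The arrays share 3 groups, so genes that separate the groups resemble each other, and no p is given. For Nppb these were Igfl3 (0.993), Ypel5 (0.992) and Akirin1 (0.989). Igfl3, an insulin growth factor-like gene, was at 10.21, 9.96 and 10.84 on oxazolone, 11.16, 9.31 and 9.65 on urushiol, and 6.20, 6.86 and 6.96 on control arrays, with urushiol array 1 the highest as for Nppb. For Il31ra they were Herpud2 (0.993), Tjap1 (0.986) and Phpt1 (0.985), and Herpud2 ranged from 10.05 to 10.70. For Slc6a4 they were Nr1d1 (0.987), Tef (0.982) and Il6ra (0.98). Nr1d1, which encodes the nuclear receptor REV-ERB alpha, was at 8.04, 7.36 and 7.84 on oxazolone, 7.69, 7.68 and 8.09 on urushiol, and 9.81, 12.19 and 10.94 on control arrays, with control array 2 the highest as for Slc6a4. For Penk they were Gigyf1 (0.988), Tbpl1 (0.986) and Calcoco1 (0.984), and for Tph1 Atf6 (0.984), Pgs1 (0.973) and Ephb1 (0.972).

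**Figure D5:**
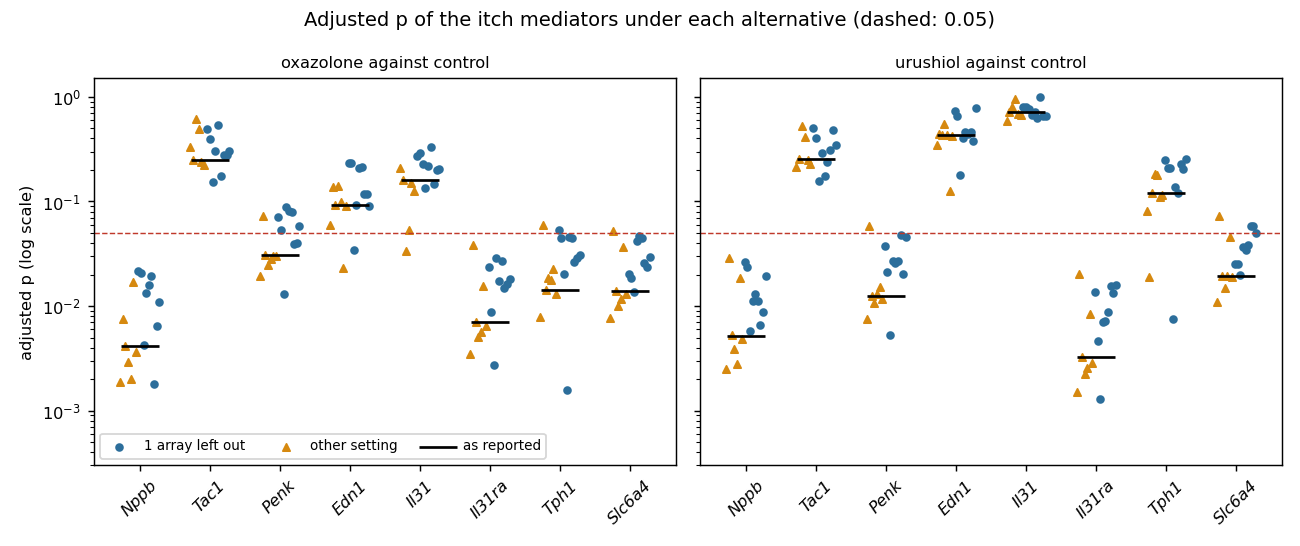
Adjusted p (vertical axis, log scale) of each itch mediator against control, as reported (bar), with 1 array left out (circles) and under the other settings (triangles), for oxazolone left and urushiol right, with 0.05 dashed. All points of Nppb and Il31ra lie below 0.05, those of Penk, Tph1 and Slc6a4 cross it in at least 1 comparison, and all points of Tac1 lie above it.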

How the data were processed

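Total RNA of whole neck skin was hybridised to 9 Affymetrix mouse arrays. The authors deposited 1 log2 expression value for each transcript cluster on each array. Per the submitters' processing notes Affymetrix Expression Console 1.4, RMA and the Transcriptome Analysis Console were used, in no stated role or order. No source used here gives the build.

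Of 72688 features, 65956 were transcript clusters. The platform annotation gave 1 symbol to 30604 of them, several to 2146 and none to 33206. Symbols were updated through gene IDs to the RefSeq table of GRCm38.p6 for 827 clusters, and the cluster with the highest mean stood for each of 30142 genes. Differences were tested in 1 two-sided limma fit of the 9 arrays (version 3.58.1, R 4.3.3; lmFit, then eBayes), with Benjamini-Hochberg adjustment over all genes and a threshold of 0.05. The code was tested on simulated data. No genes were filtered out, and arrays carry no read depth, so their number limits the precision.

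The members and the lists were chosen with earlier results of these data known. The text names all 9 members, a fixed set of their receptors and partners, up to 4 further genes of each pathway list by size of a called change, and the 3 genes most like each called member by Pearson's r. Stat3, Stat5a, Socs3, Klk5, Klk7, F10, Spink5, Tpsab1, Tpsb2 and St14 fall outside that rule and were chosen after seeing their values. So were single genes named from the marker lists. The calls of these genes were not followed singly through the alternative settings. Same-numbered oxazolone and urushiol arrays deviated together from their group means (r = 0.124 to 0.201 across genes in 3 pairs, all over 0.1). Other-numbered oxazolone and urushiol arrays ran from -0.18 to 0.021, and other-numbered arrays of all groups from -0.29 to 0.285. The numbers may therefore pair the arrays of the allergens, though r was small and the labels do not say so. The reported differences took no account of pairs, and a block by replicate number was run as an alternative. Same-numbered pairs with control arrays ran from -0.232 to 0.337 and were not taken as pairs. The settings varied were leaving dim genes out, averaging all clusters of a gene, quantile renormalisation, median centring, a trended variance, the groups compared alone, a block by replicate number and leaving out each array.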

Additional observations from a re-analysis of the deposited data

How the results depend on the processing

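Over 386 combinations of member, comparison and alternative, 364 kept their direction and their side of the threshold, 14 lost a call, 5 gained one and 3 turned their sign. Each measured member had 1 cluster, so averaging clusters could not change its values, and those combinations were all but fixed in advance. The sign turned for Il31 in urushiol against control after quantile renormalisation (-0.01) and median centring (-0.02), and for Nppb in urushiol against oxazolone without urushiol array 2 (0.07, in a range of -0.96 to 0.07 with 1 array left out). The members called in oxazolone against control were 5, and 2 with the groups fitted alone, a fit with fewer arrays, and 3 to 6 when 1 array was left out. In urushiol against control they were 4, and 3 to 5 with 1 array left out, and in urushiol against oxazolone 0 under every alternative run. Over all genes the oxazolone count of 4989 became 2198 with the groups fitted alone and 2107 to 8019 with 1 array left out, and the urushiol count of 4942 became 2324 and 2189 to 7655, in each case highest without control array 3. Quantile renormalisation gave 2127 higher and 2937 lower genes in oxazolone skin, against 2904 and 2085 as reported, and 2297 and 2341 in urushiol skin, against 3003 and 1939. The 5 genes called between the allergens became 35 with dim genes left out, 2 with the groups fitted alone, 0 after median centring, with a trended variance and with the replicate block (also over oxazolone and urushiol arrays alone, a fit added after the data were seen), and 0 to 94 with 1 array left out. With the block over all arrays, Edn1 passed in oxazolone skin (adjusted p = 0.0231), and it changed no other call of a member. Without dim genes Il31 and Tac1 gave no value. Of 51 called differences of partners against control, 24 held whichever array was left out. Without control array 3, a fit that also separates challenged from control arrays by hair genes, 46 held. With the groups fitted alone 20 were lost, after median centring 5, after quantile renormalisation 4 and with a trended variance 1, while leaving dim genes out lost none of those it kept and gained 7 others. The replicate block over all arrays lost 11. In oxazolone skin these were Htr1b (0.0882), Htr2a (0.0745), Htr7 (0.0884), Maoa (0.0559), Grpr (0.062) and Stat5b (0.0661). In urushiol skin they were Il6st (0.0709), Gch1 (0.055), Grpr (0.0518), Stat5b (0.0609) and Gnaq (0.0559). Replicate numbers were not taken to pair challenged with control arrays. No detection calls were used here, so low levels limit what can be read. Examples are the levels of Il31, Tac1, Grpr, Vipr1 and Slc18a1, and those of Tph1 and Htr1b on control arrays.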
